A study of Mus musculus with 3 samples.

Results

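The vehicle array of the study is described here, which is 1 sample of 3. It was chosen by its label, with earlier results of these data known, and no value of the other arrays was used here. The RNA came from bone marrow derived mast cells (BMMCs), which are mast cells grown in culture from marrow. The donors were Pafah2-deficient mice on a C57BL/6 background, labelled male and 12 weeks old (8 to 12 weeks in the growth protocol). The cells had been kept with DMSO, the solvent of the study's compounds, and the treatments lasted 12 h. The other arrays held the same Pafah2-deficient cells with ω3 epoxides (17,18-EpETE and 19,20-EpDPE mixed 2 to 3, at 300 nM) or with GW9662 (0.5 µM), a PPARγ antagonist. All 3 samples are thus labelled Pafah2-deficient, no wild-type array was analysed here, and the deleted stretch of the gene, any pooling of animals and the length of the culture are not given in the labels. There is 1 array per condition, so the values carry no biological replicate error and no test between conditions was made.

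Mast cells are tissue-resident blood cells that carry IgE on a high-affinity receptor. When antigen crosslinks that IgE, they empty granules that hold histamine, proteases and heparin-like proteoglycan, and then make lipid mediators and cytokines. Kit, the receptor for stem cell factor, and the receptors for IL-3 keep them alive in culture. PAF-AH2, the product of Pafah2, is an intracellular phospholipase that cleaves platelet-activating factor (PAF) and oxidised phospholipids. The vehicle array reads these genes in deficient cells that were not given the study's compounds.

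Each gene was read by 60-base DNA probes, and its signal is how brightly the labelled RNA lit the probe. A level is log2 of that signal minus log2 of the 75th percentile of all 43020 non-control spots, so 0 is a signal of 1916 units and each step of 1 is a doubling. A gene was counted as detected when at least 1 of its probes was well above background by the scanner software, over most of its retained spots. For genes with several probes the brightest one is given. Brightness depends on the probe as well as on the RNA, so levels of different genes give no order of transcript number, and a gene that is not well above background may still be transcribed at a level these probes did not show.

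The probes that read the 4 defining markers are shown by their first 30 bases, 5′ to 3′, with mm9 positions from the array file, because every statement on cell identity starts from them. The Fcer1a probe lies at chr1:175151438-175151497, the Fcer1g probe at chr1:173159794-173159853, the Kit probe at chr5:76052394-76052453 and the Cpa3 probe at chr3:20115674-20115733. None shares a run of 18 bases with a probe of another gene on another chromosome. Exon and UTR annotation of this build was not used here.
Fcer1a: caggaattgcataaatgcttcattaaacca
Fcer1g: aggtccccatctccgttaaagacttactca
Kit: gtcaggtacttaaggggccacaccattgag
Cpa3: gccaagtatatcctcaagaatacttcctaa

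All 4 markers were bright. Fcer1a, the IgE-binding chain of the receptor, had a level of 6.93 ± 0.14. Fcer1g, its signalling chain, had 6.43 ± 0.14. Kit had 5.73 ± 0.14, and Cpa3, the mast cell carboxypeptidase, had 7.61 ± 0.14. The errors are the scanner software's model error of the spot, in log2 units, for a single spot per gene. Of all detected genes, 96.3% had a level at or below that of Kit and 99.5% at or below that of Fcer1a, so the defining markers of the labelled cell type were present and bright.

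**Figure D1:**
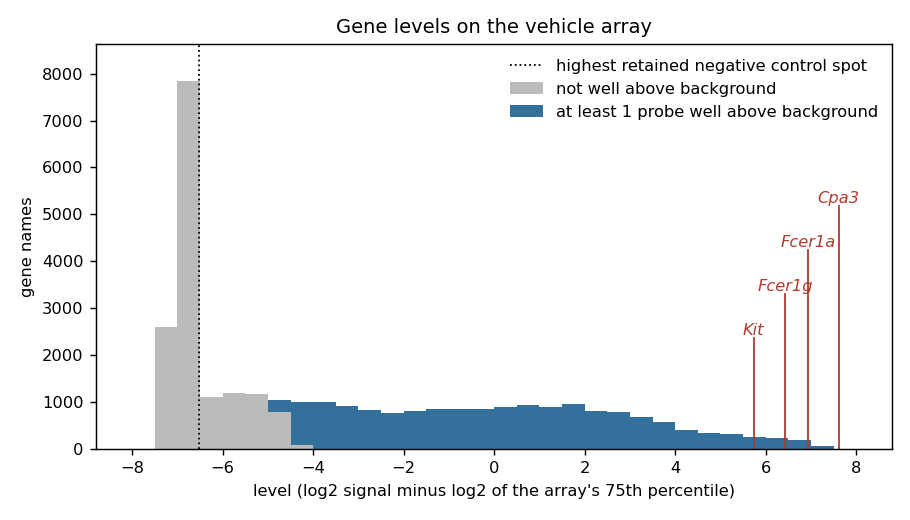
Histogram of the level of each of 31073 gene names in steps of 0.5 (x axis, log2 scale; y axis, number of gene names), split into genes with and without a probe well above background; red lines mark Kit, Fcer1g, Fcer1a and Cpa3, and the dotted line is the highest retained negative control spot at -6.53. The markers lie between 5.73 and 7.61, in the right tail.

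Of 31073 gene names, 16304 (52.5%) were detected, and of the 20022 with a RefSeq mRNA probe, 11938 (59.6%). Detected genes ran from -4.84 to 7.66, with a median of 0.07 and quartiles of -2.40 and 2.32. No spot was saturated. The SD among 10 copies of a probe had a median of 0.052 over 126 probes with levels above 0 and 0.161 over 35 detected probes with levels between -5 and -3. Of 153 negative control spots 4 were called, and all 4 were marked as outliers. The 131 retained spots thus gave 0 calls, which allows a share of up to 2.29% (3 counts, counting error only). As the outlier marks removed every call, this is no limit for probes with a single spot, which have no copies to compare. The labelled spike-in RNAs followed their known amounts with a log-log slope of 0.957 (r² 0.989). The scanner software put 4 of its 10 quality measures out of range, among them the mean of the negative controls and the spatial trend.

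Calls were less certain in the middle of the slide. Among 178 probes with 10 copies that were not detected by most copies, 51 of 728 spots in a middle band, from just after row 180 to row 400, were nonetheless called (7.01%, exact 95% interval 5.26 to 9.11). In the other rows 5 of 1052 were called (0.475%, interval 0.154 to 1.11). The interval covers counting error only. Of the 51 spots, 39 were marked as outliers and dropped. A mark for an uneven spot can fall on any probe, but a mark against the other copies needs a probe with copies. The brightest such call had a level of -1.27. All 6 calls among negative control and unlabelled spike-in spots, outlier spots included, lay in this band too. Olfactory receptor probes, which read genes of the nose, were called in 13.9% of 509 inside the band and in 5.75% of 678 outside. For all probes the shares were 54.9% of 16634 inside and 49.6% of 22760 outside. A gene below whose call rests on a single spot in the band, at or under -1.27, is said to lie in the uncertain rows.

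**Figure D2:**
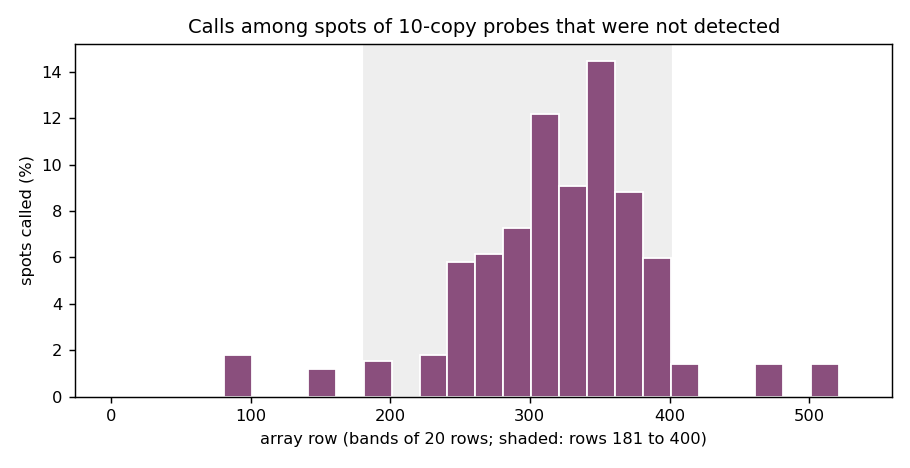
Share of spots called well above background (y axis, %) by array row in bands of 20 (x axis), among all spots of the 178 undetected probes with 10 copies; the middle band is shaded. The share was 14.47% in rows 341 to 360, the highest band, and 0 or near 0 at the top and bottom of the slide.

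Pafah2 itself gave a signal in these Pafah2-deficient cells. Its only probe, at mm9 chr4:133982528-133982587, had a level of 0.03 ± 0.14 and was well above background. The probe lies in row 285, but its level is above the brightest stray call of those rows. As the deleted stretch is not given, a probe outside that part would check nothing about the deletion.

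The background was 52.5% of all gene names (59.6% of those with a RefSeq mRNA probe). Of the 439 distinct genes in 22 mast cell lists, 334 were detected (76.1%). Of 169 genes in lists for other lineages that no mast cell list also holds, 51 were detected (30.2%). When the middle band and probes of doubtful sequence or position were left out, the shares were 208 of 290 (71.7%) and 30 of 118 (25.4%), beside 9099 of 18886 (48.2%) for all genes. On the full array, with a level above -1.27 also required, the shares were 247 of 439 (56.3%) and 15 of 169 (8.88%), beside 10437 of 31073 (33.6%). The lists were chosen with results of these data known, so the shares describe the lists and test nothing. The mast cell lists also hold cell cycle genes (17 of 18 detected) and immediate early genes (19 of 20), which are not particular to mast cells. The 76.1% is thus no measure of mast cell identity.

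**Figure D3:**
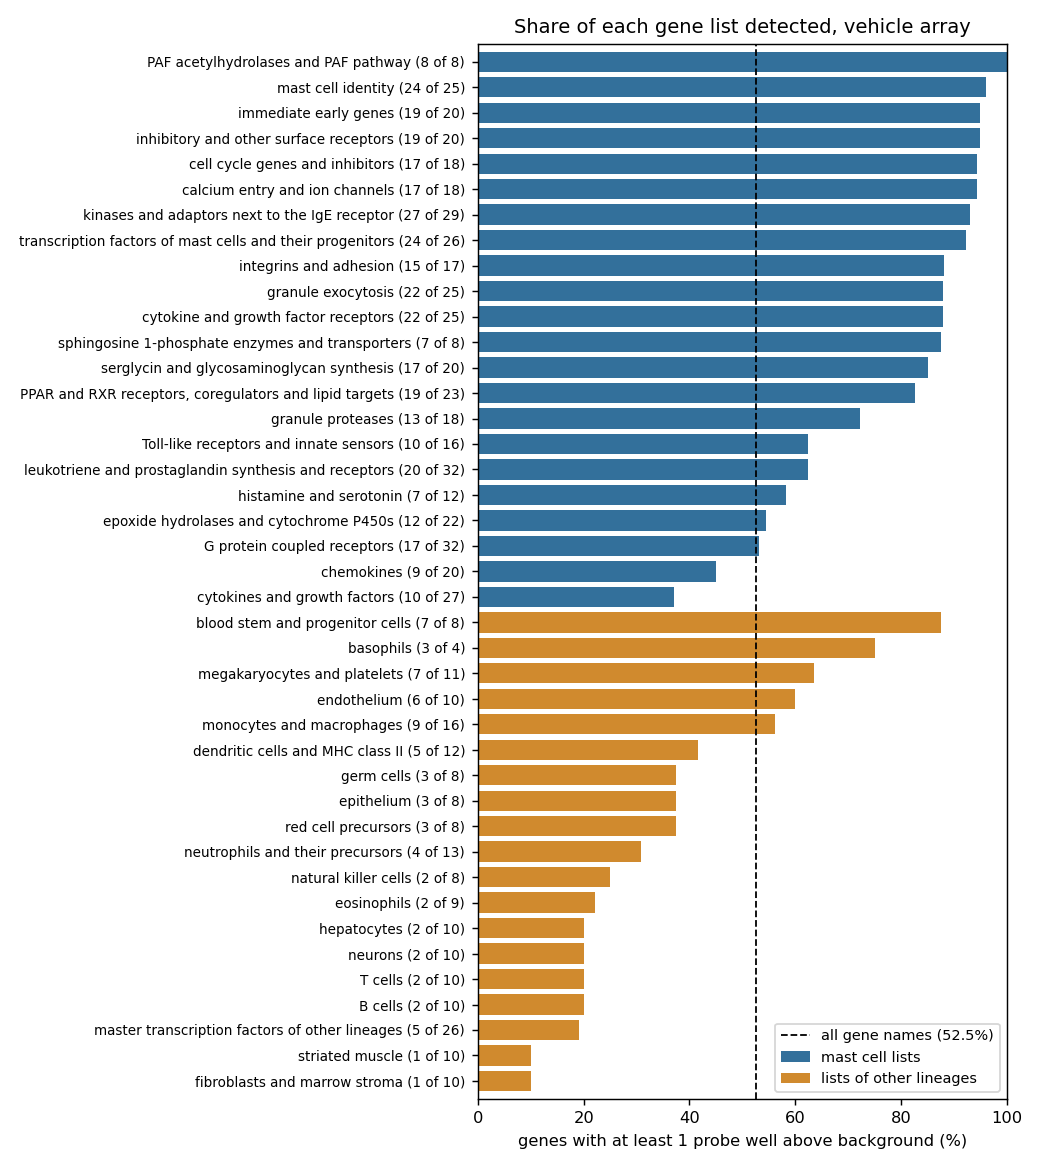
Percentage of the genes in each list with at least 1 probe well above background (x axis); blue bars are mast cell lists, orange bars lists of other lineages, counts stand in the labels, and the dashed line is the 52.5% of all gene names. Mast cell lists run from 37.0% for cytokines to 100% for the PAF pathway, and lists of other lineages reach 87.5%, for blood progenitors.

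Of the 25 genes of mast cell identity, 24 were detected, at a median level of 5.57. Ms4a2, the β chain of the IgE receptor, had a level of 3.65. Il1rl1, the receptor for IL-33, had 7.03 and was read by 3 probes, all detected. Gata2 (5.47) and Mitf (3.89) encode transcription factors that mast cells need, and both were well above background. Hdc, which makes histamine, was the dim exception among the detected genes, at -4.29 ± 0.26 from a single spot in the uncertain rows (row 245). Tpsab1, a tryptase whose protein C57BL/6 mice are known to lack, was the only one of the 25 not well above background.

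**Figure D4:**
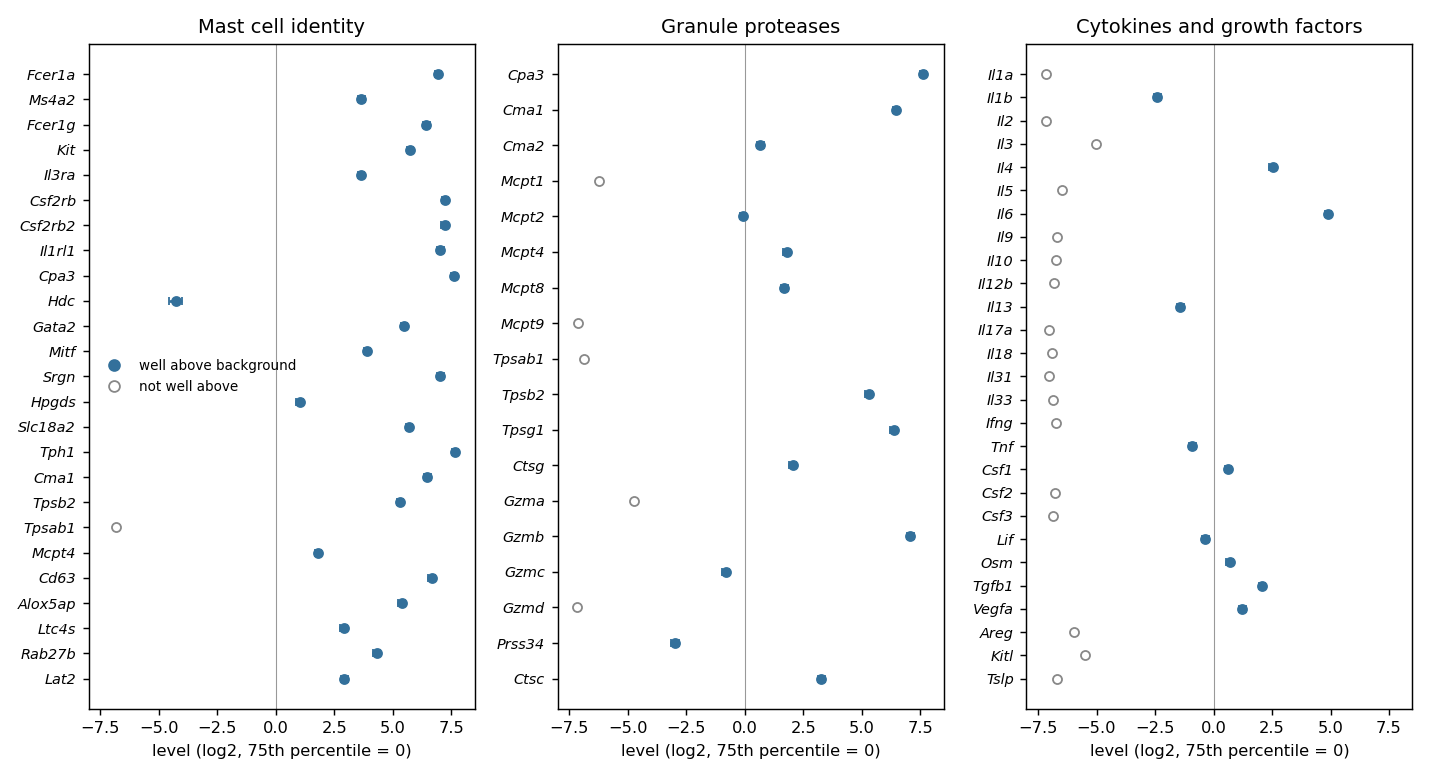
Level of each gene (x axis, log2, 75th percentile of the array at 0) in the lists for mast cell identity, granule proteases and cytokines; filled points are well above background with the software's model error as bars, and open points are not. Most identity genes lie right of 0, whereas 17 of 27 cytokines and growth factors are open points.

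The relay next to the IgE receptor was almost complete, with 27 of 29 genes detected. Lyn, the first kinase to act on the receptor, had a level of -1.02. Syk, which binds the phosphorylated receptor, had 1.97 on 1 probe and -5.24, not well above background, on the other. Btk, a kinase further down, had 4.19 on 1 probe and 0.2 on the other. The adaptors Lat (4.09) and Lat2 (2.92) anchor the complex at the membrane, and both were detected. So were the phospholipases Plcg1 (2.76 on the brightest of 3 probes, -4.16 on the dimmest) and Plcg2 (3.82), which release the calcium signal. The exchange factor Vav1 (4.18) was detected too. Among the brakes, Inpp5d, which encodes the lipid phosphatase SHIP1, had 4.59 and Ptpn6, the tyrosine phosphatase SHP-1, had 3.83. The 2 genes not well above background were Fgr, a Src family kinase, and Pag1, an adaptor that holds the kinase Csk.

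Among 25 cytokine and growth factor receptors, 22 were detected. The shared β chains for IL-3, IL-5 and GM-CSF were among the brightest genes of the array. Csf2rb had a level of 7.22 on 1 probe and 3.90 on the other, and Csf2rb2, its close mouse paralog, had 7.21. The probes of these paralogs share no run longer than 10 bases, but whether each also matches the other gene's RNA was not tested. The partner chains were detected as well, Il3ra at 3.64 and Csf2ra at 3.01, as was Crlf2, the receptor for TSLP, at 5.58. Il9r, Il7r and Tnfrsf1a, receptors for IL-9, IL-7 and TNF, were not well above background. Csf3r, the G-CSF receptor of neutrophils, gave 5.60, but its only probe maps to mm9 chr19:60157892-60157951, which is not the chromosome of the gene in RefSeq.

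The granule proteases split gene by gene, with 13 of 18 detected. Cma1, the chymase mMCP-5, had a level of 6.47, and the tryptases Tpsb2 and Tpsg1 had 5.30 and 6.36. Gzmb, granzyme B, had 7.08 and Ctsc, which activates granule proteases, had 3.27. Other chymases are known to mark connective tissue or mucosal mast cells. Among them Mcpt4 (mMCP-4) had 1.79 and Mcpt2 had -0.08, while Mcpt1 and Mcpt9 were not well above background, nor were Gzma and Gzmd. The probes of Mcpt1 and Mcpt2 share no run longer than 10 bases, and those of Tpsb2 and Tpsab1 none longer than 8. How far each probe matches the RNA of its relatives was not tested.

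The proteoglycan core Srgn, serglycin, to which granule proteases and histamine bind, had a level of 7.03. Of the 20 genes for serglycin and its sugar chains, 17 were detected. Ndst2, the sulfotransferase that mast cells need to make heparin, had 5.08. Its relatives Ndst1 and Ndst3 had 0.74 and 0.61, and Ndst4 was not well above background. Chsy1, which builds chondroitin chains, had 4.22.

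For amines, 7 of 12 genes were detected, a share of 58.3% that is close to the 59.6% of all genes with a RefSeq mRNA probe. Tph1, the first enzyme of serotonin synthesis, had a level of 7.66, the highest of the array. Slc18a2, which pumps amines into granules, had 5.68 on 1 probe and 3.35 on the other, and Maob, which breaks amines down, had 4.54. Hdc was near the detection floor, as given above. Ddc, which completes serotonin, had -1.86 on 1 of 2 probes, and Tph2, Slc18a1, Maoa, Aoc1 and Slc22a3 were not well above background.

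In lipid mediator synthesis, the leukotriene genes named here were all detected. Pla2g4a, the phospholipase that frees arachidonic acid, had a level of 1.99. Alox5 and Alox5ap, which make leukotriene A4 together, had 6.69 and 5.37, and Ltc4s, which turns it into leukotriene C4, had 2.89. The prostaglandin arm was read through Ptgs1 (2.88), the constitutive cyclooxygenase, and Hpgds (1.01), which makes prostaglandin D2. Ptgs2, the inducible cyclooxygenase, was not well above background, and neither were Ptgds, Ptgis, Alox12 and Alox15. Tbxas1, thromboxane synthase, had 4.79 on 1 of 2 probes. In the whole list 20 of 32 genes were detected (62.5%), near the 59.6% of all genes with a RefSeq mRNA probe, and the undetected ones included the receptors Cysltr1, Ptger1, Ptger2, Ptgdr and Ptgdr2, whereas Ptger3, the receptor for prostaglandin E2 that activates mast cells, had 3.24.

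All 8 genes of the PAF pathway were detected, at a median of -1.08. Besides Pafah2, the subunits of the type I PAF acetylhydrolase had levels of 4.24 (Pafah1b1), -1.10 (Pafah1b2, on 1 of 2 probes) and 2.74 (Pafah1b3). Pla2g7, the secreted acetylhydrolase of plasma, had -1.06 on a probe in the middle band and -5.47, not well above background, on the other. Lpcat1 and Lpcat2, which can make PAF, had -4.22 and -2.58, and Ptafr, its receptor, had -1.29.

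Epoxide hydrolases, cytochrome P450 enzymes and their reductase were detected at 12 of 22, a share of 54.5% that lies near the background. Por, which passes electrons to all microsomal P450 enzymes, had a level of 4.65. Ephx1, the microsomal epoxide hydrolase, had -0.77 and Ephx3 had -2.59. Ephx2, the soluble hydrolase that opens epoxides of fatty acids, was not well above background. Of the P450 genes known for epoxygenase activity, Cyp2j5, Cyp2j6, Cyp2c29 and Cyp2c44 were not well above background and Cyp2j9 had -3.23 in the uncertain rows. Cyp2u1 had 3.91, but on a probe whose sequence recurs in a probe of another gene. Its other probes gave -3.77, in the uncertain rows, and -6.73, not well above background.

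The nuclear receptor that GW9662 blocks was dim. Pparg had a level of -3.75 ± 0.23, and 10.4% of detected genes were at or below that level. Ppard had 0.64 and the partner receptor Rxrb had 3.36, with Rxra at -4.22 on 1 of 2 probes. The corepressor Ncor1 was detected at 1.35. Known lipid targets were mixed. Plin2, Angptl4 and Cpt1a had 1.06, 1.44 and 1.49. Cd36 (in the uncertain rows) and Lpl (on 1 of 2 probes) lay near the floor at -4.68 and -4.24. Fabp4 and Adipoq were not well above background. In the list as a whole, 19 of 23 genes were detected.

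Of 26 factors of mast cells and their progenitors, 24 were detected, at a median of 2.38, among them Gata1 (4.85), Tal1 (4.97) and Lyl1 (5.48), which act in mast cell, red cell and platelet lineages. Stat5a and Stat5b, which relay IL-3 and Kit signals, had 3.19 and 3.15. Spi1, the PU.1 factor of myeloid cells, was dim at -2.97, in the uncertain rows. Cebpa, a factor of granulocytes and monocytes, was not well above background. Of 26 master factors of other lineages, 5 were detected, with none above -2.31. Pax5 and Ebf1 (B cells), Tcf7 and Bcl11b (T cells), Tbx21 and Eomes (natural killer cells), Klf1 (red cells) and Irf8 (dendritic cells and monocytes) were not well above background.

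Inhibitory and other surface receptors were detected at 19 of 20. Lilrb4, an inhibitory immunoglobulin-like receptor, had a level of 7.24 on 1 probe and 4.18 on the other. Cd300lf had 4.25 on the brightest of 3 probes, Pirb had 3.49, and the tetraspanins Cd63, which marks granule membranes, and Cd9 had 6.66 and 4.51. Milr1, the inhibitory receptor named Allergin-1, had 6.82, 6.01 and 3.08 on its 3 probes, and the first 2 share sequence runs with probes of other genes, as shown further on.

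G protein coupled receptors were detected at 17 of 32 (53.1%), near the background. F2r, a thrombin receptor, had 6.26, Adora3, the adenosine A3 receptor that enhances degranulation, had 5.53, and P2ry14, a receptor for UDP sugars, had 3.82. Cx3cr1, the fractalkine receptor, had 3.97 on the brightest of 3 probes, all detected. Mrgprb2, the receptor for basic secretagogues in connective tissue mast cells, was dim at -1.28, inside the uncertain rows. The chemokine receptors Ccr1, Ccr2, Ccr3, Cxcr2 and Cxcr4 were not well above background.

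Toll-like receptors and their partners were detected at 10 of 16 (62.5%), near the 59.6% of all genes with a RefSeq mRNA probe. Tlr4, the sensor of lipopolysaccharide, had 0.83 and its partner Ly96 had 0.61, while their helper Cd14 was near the floor at -4.45. Myd88, the shared adaptor, had 2.17. Tlr1, Tlr3, Tlr5 and Tlr8 were not well above background. Among 17 integrins and adhesion genes, 15 were detected. Itgb7, a subunit that guides mast cell progenitors to the gut and lung, had 5.88, and its partner Itga4 had 0.54 on 1 of 2 probes. Itga2b, better known from platelets, had 2.02.

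Most cytokines were not well above background, with 10 of 27 detected (37.0%), beside 52.5% of all gene names. Il6, an inflammatory cytokine, had a level of 4.90, Il4, a cytokine of allergy, had 2.52 and Tgfb1 had 2.08. Il13 and Tnf, which activated mast cells release in quantity, had -1.43 and -0.90, Il13 in the uncertain rows and Tnf in the same band but above its brightest stray call. Il3, Csf2, Il5, Il9, Il10, Il31 and Ifng were not well above background. Chemokines were detected at 9 of 20. All of these were CC chemokines, with Ccl2 at 5.96, Ccl6 at 3.82, Ccl4 at 2.75 and Ccl3 at 1.90, while Cxcl1, Cxcl2, Cxcl3, Cxcl5, Cxcl10 and Cxcl12 were not well above background.

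The machinery of granule release was detected at 22 of 25 genes. Rab27b and Rab37, small GTPases of secretory granules, had 4.30 and 4.83. The membrane fusion proteins Stx4a and Vamp8 had 4.87 and 3.57, and Stxbp2 and Unc13d, which prime fusion, had 3.57 and 3.23. Snap23, their partner in fusion, had 3.15 on a probe that shares a run with probes of other genes and 0.75 on a probe that maps to another chromosome. Cplx2, a complexin, had 5.36, 5.24 and 5.11 on 3 probes that map to other chromosomes than the gene, and -3.74 on the probe that maps to its own, in the uncertain rows. Syt1, Syt2 and Syt3, calcium sensors of the synaptotagmin family, were not well above background.

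Calcium entry genes and ion channels were detected at 17 of 18. Stim1, the store sensor, had 3.05 on the brightest of 3 probes, and its channel partner Orai1 had -0.59. The ATP-gated channels P2rx1, P2rx4 and P2rx7 had 2.16, 5.65 and 4.37, and Itpr2, a store release channel, had 4.15. For sphingosine 1-phosphate, 7 of 8 genes were detected. Sphk2, a kinase that makes it, had 2.73 and Sphk1, the other kinase, had -4.35 on 1 of 2 probes, in the uncertain rows. Mfsd2b, an exporter known from red cells and platelets, had 6.04 on a probe in row 203 and -5.59, not well above background, on its other probe.

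Of 18 cell cycle genes and inhibitors, 17 were detected, at a median of 2.90. Mki67, a marker of cycling cells, had 4.38, Ccna2, a cyclin of the later cycle, had 2.90, and Rrm2, which makes DNA precursors, had 3.92 on a probe that maps to another chromosome than the gene. Of the D cyclins, Ccnd3 had 4.96 on a probe that maps to another chromosome and 3.08 on the probe that maps to its own, Ccnd2 had 3.45, and Ccnd1 was not well above background. Immediate early genes were detected at 19 of 20. Jun had 5.16, Egr1 4.93 and Ier3 4.67, whereas Fosb, Atf3 and Zfp36 had -2.11, -4.01 and -4.42, and Egr3 was not well above background.

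Markers of other cells were mostly at or near the background, but not all. In bulk RNA, a few cells of another type and little RNA per cell cannot be told apart. Leaving aside genes that a mast cell list also holds, the 9 genes with a level of 0 or more were Ly6a (5.72), Siglech (5.27), Cd34 (5.16), Gp1ba (4.47), Vwf (3.85), Kdr (2.05), Elane (0.73), Cd4 (0.64) and Vcan (0.46). Ly6a, the Sca-1 antigen, and Cd34 mark blood progenitors, and Cd34 is also known on mouse mast cells. The 2 Cd34 probes gave 5.16 and -1.27, both detected. Siglech, a marker of plasmacytoid dendritic cells, was bright on 1 probe, in row 368 and with a shared sequence run, and at -6.73 on the other. Kdr and Cd4 were likewise detected on 1 of their 2 probes, with -6.20 and -5.58 on the other.

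Other blood lineages that a marrow culture can hold gave mixed counts. Of 10 B cell genes 2 were detected, Vpreb1 at -2.12 and Cd22 at -1.45 (in the uncertain rows), while Cd79a, Cd79b and Ms4a1, part of the B cell receptor complex or surface, were not well above background. Of 10 T cell genes 2 were detected, Cd3e at -0.31 and Cd4 at 0.64, while Cd3d, Cd3g, Cd8a and Cd2 were not. Of 13 neutrophil genes 4 were detected, Elane at 0.73, Lcn2 at -2.86, Mmp8 at -3.71 and Camp at -4.34 (in the uncertain rows). Mpo, Ltf, S100a8, S100a9 and Mmp9 were not. Without the middle band and probes of doubtful sequence or position, 2 of 7 neutrophil genes were detected. Macrophage genes were detected at 9 of 16 (56.2%), near the 52.5% of all gene names and the 59.6% of those with a RefSeq mRNA probe. The highest level among the macrophage genes was 0.46, in Vcan. Cd68, a lysosomal protein of macrophages, had -0.28, Lyz1, a lysozyme, had -0.79, Adgre1, the F4/80 antigen, had -0.93 and -1.47 on its 2 probes, and Csf1r, the receptor for M-CSF, had -1.30 on a probe in the uncertain rows. Mrc1, Cd163, C1qa, C1qc and Lyz2 were not well above background. The part of such cells in the other values was not tested. Dendritic cell and MHC class II genes were detected at 5 of 12 (41.7%), beside the same 52.5%. Besides Siglech, given above, H2-Ab1 had -2.49 and -2.91 on its 2 probes and Itgax had -3.48. Ciita and Flt3 had -3.53 and -3.83, each on 1 probe in the uncertain rows. Of 9 eosinophil genes 2 were detected, Il5ra at -1.35 and Ear6 at -4.68, both in the uncertain rows, and the granule proteins Epx and Prg2 were not. Marrow stroma gave 1 of 10, Pdgfrb at -0.21, with Col1a1, Col1a2, Col3a1 and Cxcl12 not well above background.

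Basophils, the blood cells most like mast cells, share many of these transcripts. Mcpt8, the basophil protease mMCP-8, had a level of 1.69, Cd200r3 had 3.26 on the brighter of 2 probes, and Prss34, the protease mMCP-11, had -2.98 in the uncertain rows. Itga2, the integrin chain CD49b used to mark basophils, was not well above background. Platelet genes were detected at 7 of 11 (63.6%), near the 59.6% of all genes with a RefSeq mRNA probe. When the middle band and probes of doubtful sequence or position were left out, 2 of 7 platelet genes were detected. Gp1ba had 4.47 and Gp9 had -2.06, but Ppbp, Gp6, Gp1bb and Treml1 were not well above background.

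The Y-linked genes Eif2s3y (2.48) and Ddx3y (0.85) were detected and Uty was dim at -3.78, while Kdm5d was not well above background. Xist, which is transcribed in female cells, was not well above background on its 2 probes. These values do not go against the male label of the mice.

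The brightest genes of the array combined general and mast cell transcripts. Of the 30 brightest genes with a plain symbol, 15 encode ribosomal proteins or ubiquitin fusions of the ribosome, and Actb (7.58), Tpt1 (7.56), Ppia (7.33) and Tuba1b (7.18) encode abundant proteins of nearly every cell. Tph1, Cpa3, Csf2rb, Csf2rb2 and Lilrb4 came from the mast cell lists. Ctla2a, which encodes a cathepsin inhibitor, had 7.19. The levels of the 30 genes lay between 7.15 and 7.66, and together they gave 3.93% of the summed signal of detected genes. The 163 brightest, the top 1%, gave 17.2%. Such shares depend on the probes and are no shares of RNA.

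Some bright signals belong to sequences that recur in the genome. Of all 39394 probes, 51.9% were detected. A run of at least 18 bases was shared with a probe of another gene on another chromosome in 1874 probes, of which 80.0% were detected. Of 27914 probes with both positions known, 824 mapped to another chromosome than their gene, and 91.0% of the 824 were detected. Among the 30 brightest genes, 20 were read by a probe of either kind, ribosomal genes with their many copies included. The runs shared by the following pairs are printed in capitals, in 30-base windows that start at or before the run, because probes for unrelated genes hold the same letters. For the 41-base and 39-base runs the window shows the first 30 shared bases. The first pair shares 41 bases, the second 18, the third 39 and the last 23.
Glrx2: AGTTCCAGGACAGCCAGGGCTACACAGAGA
Elk1: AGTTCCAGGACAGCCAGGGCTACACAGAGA
Slc10a1: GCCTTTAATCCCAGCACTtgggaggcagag
Csf3r: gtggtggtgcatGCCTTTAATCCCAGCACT
Milr1 first probe: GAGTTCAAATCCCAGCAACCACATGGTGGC
Exosc2: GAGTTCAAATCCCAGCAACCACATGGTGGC
Milr1 second probe: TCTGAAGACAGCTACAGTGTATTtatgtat
Medag: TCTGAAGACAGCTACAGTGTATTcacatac

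The first 4 windows hold letters of the B1 short interspersed repeat and the last 4 letters of the B2 repeat, both families that are scattered through the mouse genome and transcribed in many places. The levels on these probes were 7.37 for Glrx2, 7.09 for Elk1, 7.18 for Slc10a1, 5.60 for Csf3r, 7.38 for Exosc2 and 6.95 for Medag. Glrx2, a mitochondrial glutaredoxin, had another probe at -5.19, and Slc10a1, the bile acid carrier of liver cells, had another at -6.62, not well above background. The bright probes of Elk1 and Slc10a1 lie side by side at mm9 chr12:100686807-100686866 and chr12:100686870-100686929. Counting runs of 16 letters over all probes, 1 run of the B2 kind occurred in 13 probes, all 13 detected at a median level of 6.56, and 1 of the B1 kind in 11 probes, all detected at a median of 5.29. Nanog, a factor of embryonic stem cells, was among the former, with -2.31 on the probe that holds the run and -6.74 and -6.91 on its other probes. These runs, and Elk1 and Medag, were chosen after their values were seen.

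Across genes, the share detected was higher where the promoter held more CG dinucleotides. RefSeq promoter windows of 300 bases (GRCm38.p6, 250 before and 50 after the start) were matched by symbol for 14140 genes with a single window, of which 54.9% were detected. Genes with 0 or 1 CG dinucleotide in the window were detected at 17.4% of 1756, and genes with 21 or more at 78.6% of 4810. The share was higher in each successive class. The median CG count was 20 in detected genes and 5 in the others.

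**Figure D5:**
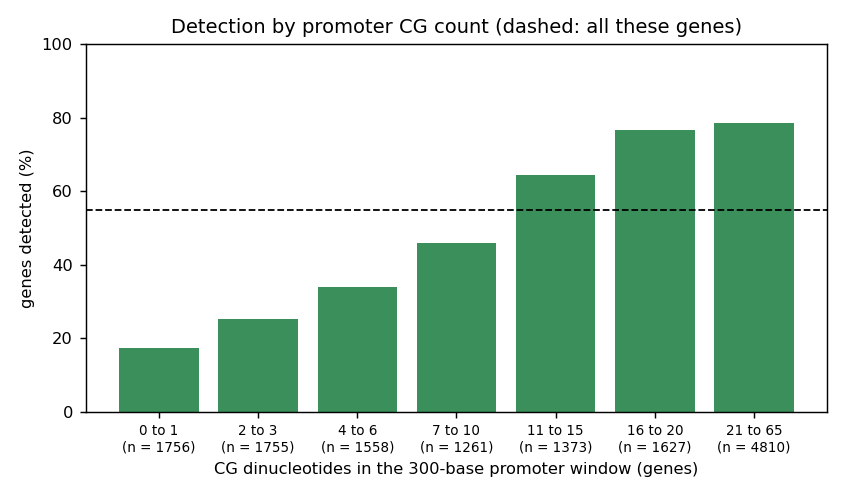
Percentage of genes detected (y axis) by the number of CG dinucleotides in the 300-base promoter window (x axis, number of genes in brackets); the dashed line is the 54.9% of all 14140 genes. The bars run from 17.4% to 78.6%.

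Most mast cell identity genes with a single window held few CG there. The list was chosen with results of these data known, so the detection of these genes tests nothing about that trend. Of these 13 genes, the CG counts ran from 1 in Fcer1a to 7 in Fcer1g, except 12 in Slc18a2 and 35 in Il3ra. Ms4a2 has 2, and Cpa3 and Cma1 have 3, whereas the first of the Gata2 windows has 32 in its 300 bases. GATA factors are known to contact the hexamer AGATAA, which reads TTATCT from the opposite strand. They also contact the hexamer TGATAA, or TTATCA from the opposite strand. Either hexamer, on either strand, was in 6 of the 13 windows and in 16.1% of all 14140. The share was 11.3% in detected and 22.0% in undetected genes. The letters TATAAA on either strand, the core of a TATA box, were in 3 of the 13 (Fcer1a, Cpa3 and Mcpt4) and in 13.4% of all, with 7.92% in detected and 20.0% in undetected genes. A match is a description and no sign of binding. The 250 bases before the start are printed for the receptor chains Fcer1a (GRCm38.p6 chr1:173227230-173227479, minus strand) and Ms4a2 (chr19:11623720-11623969, minus strand) and for Cpa3 (chr3:20242182-20242431, minus strand), with these GATA hexamers in capitals. For contrast, the same stretch of that Gata2 window (chr6:88193641-88193890, plus strand) is shown with its 22 CG in capitals.
Fcer1a: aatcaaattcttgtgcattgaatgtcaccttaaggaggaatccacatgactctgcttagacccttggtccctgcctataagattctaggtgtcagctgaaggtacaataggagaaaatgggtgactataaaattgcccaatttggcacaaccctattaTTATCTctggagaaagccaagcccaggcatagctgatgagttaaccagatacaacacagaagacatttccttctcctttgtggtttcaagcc
Ms4a2: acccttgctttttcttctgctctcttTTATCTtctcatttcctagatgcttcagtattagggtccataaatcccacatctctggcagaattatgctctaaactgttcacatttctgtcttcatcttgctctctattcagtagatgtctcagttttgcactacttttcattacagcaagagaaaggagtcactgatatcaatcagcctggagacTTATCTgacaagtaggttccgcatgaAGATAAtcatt
Cpa3: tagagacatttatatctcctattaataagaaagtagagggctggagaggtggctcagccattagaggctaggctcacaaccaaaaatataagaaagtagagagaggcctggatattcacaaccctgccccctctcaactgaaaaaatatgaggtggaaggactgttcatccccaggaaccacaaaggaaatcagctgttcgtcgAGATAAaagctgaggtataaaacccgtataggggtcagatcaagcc
Gata2: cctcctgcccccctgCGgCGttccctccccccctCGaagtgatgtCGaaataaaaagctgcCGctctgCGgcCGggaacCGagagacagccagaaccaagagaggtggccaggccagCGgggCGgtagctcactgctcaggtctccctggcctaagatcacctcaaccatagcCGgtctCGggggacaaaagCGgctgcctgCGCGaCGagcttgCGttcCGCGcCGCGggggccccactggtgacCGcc

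The hexamer in Fcer1a begins 92 bases before the start and the one in Cpa3 46 bases before it. Ms4a2 holds 3, the nearest 11 bases before the start. Cma1 and Fcer1g, which were bright, had no such hexamer in the window. The GATA factors Gata1 and Gata2 were both well above background, at 4.85 and 5.47.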

How the data were processed

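The vehicle array is an Agilent one-colour array scanned and read out in Agilent Feature Extraction 11.5.1.1, per the submitters' processing notes. RNA (200 ng) was labelled with Cy3, per the labels' protocols. The deposited processed intensity is background-subtracted and detrended per the file headers, on a linear scale. The authors' deposited value table gives a ratio, which in all 44397 rows equals that intensity over the array's own 75th percentile (tolerance 0.001), with a column median of 0.0475.

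From the intensity, control spots and 230 spots marked as outliers were left out, log2 levels were taken against the 75th percentile, and copies were averaged over 39394 probes. A probe was detected when more than 50% of its retained spots were well above background, and a gene by at least 1 probe, with the brightest probe as its level. Gene names and mm9 positions are those of the array file. Of 628 listed genes 625 matched by symbol, 2 by RefSeq accession or synonym, and 1 had no probe. Each gene's chromosome was compared with RefSeq (GRCm38.p6). Intensities were also background-corrected with normexp (limma 3.58.1, offset 50) as an alternative. The steps were tested on simulated data. The sample, the 44 gene lists and the middle band (rows after 180 up to 400) were chosen with earlier results of these data known. Named genes are those of the lists, the 30 brightest with plain symbols, Pafah2 and Pparg, and others are said to be chosen after their values were seen. With 1 array nothing was tested, and the number of arrays limits the precision. The treated arrays were not used.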

Additional observations from a re-analysis of the deposited data

How the results depend on the processing

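The shares detected depend on the call. With the software's test against local background, 68.8% of all genes, 85.9% of mast cell list genes and 49.1% of other-lineage genes were detected. Above the 99th percentile of negative controls, these were 46.7%, 71.1% and 22.5%. With more than 50% of a gene's probes required, all genes gave 47.8% and mast cell lists 70.4%. Without the middle rows, all genes gave 50.1%, and without probes that share a run, 51.1%. Leaving out both and probes on another chromosome gave 48.2% for all genes and 71.7% for mast cell lists. A level above the brightest stray call, added after seeing the data like the settings on sequence and chromosome, gave 33.6%, 56.3% and 8.88%. In each of these settings the mast cell share was above that of all genes and the other-lineage share below it. The median level of the 4 markers was 6.68, with 6.63 after normexp and 6.97 when scaled on the median of detected probes. Without the middle rows it has no value, because Kit and Fcer1g lie there. Of the 30 brightest genes, 19 stayed with the mean of detected probes, 17 without shared runs and 19 without probes on another chromosome. Other settings moved no share outside its counting interval, no marker median by more than the copy SD, and kept at least 20 of the 30 genes. Dim signals are limited by the background, and culture, labelling and hybridisation error could not be measured with 1 array. No paired analysis was possible because 1 array was described.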
